A study of Mus musculus with 4 samples.

Results

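Of 60713 autosomal regions of open chromatin in mouse lung tumours, 362 (0.596%) held a peak in both KrasLA1;Dicer1S2D tumours and in neither KrasLA1 tumour. They are called the Dicer1S2D-only regions in what follows. They were selected on the peak calls of all 4 libraries, so their absence from the KrasLA1 tumours is the rule that chose them and not a result, and it carries no test. They lay in, or within 10 kb of, 283 protein-coding genes, 1.78% of 15882 protein-coding genes that had at least 1 region of any kind. The comparison asks what chromatin the Dicer1S2D allele went with, beyond that of KrasLA1 alone.

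Chromatin accessibility was measured by ATAC-seq, in which a transposase cuts and tags DNA that is free of nucleosomes, so that open promoters and enhancers appear as peaks of reads. Each library came from 40 to 50 mg of frozen lung tumour of 1 mouse of strain C57B6J (spelled as in the labels), aged 55 weeks. The KrasLA1 group was KrasLA1/+, with a female as replicate 1 and a male as replicate 2. The KrasLA1;Dicer1S2D group was KrasLA1/+ and Dicer1S2D/+, again with a female as replicate 1 and a male as replicate 2, so replicate number and sex are the same division. All 4 mice therefore carried KrasLA1, a latent oncogenic allele that recombines spontaneously in somatic cells, and no sample without it was analysed here. Dicer1S2D is an allele of Dicer1, the enzyme that cuts microRNA precursors, with serines changed to aspartate to mimic phosphorylation. The labels do not say whether a sample held 1 tumour or several, and a sample is called a tumour here.

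Promoters open in most tissues tend to be rich in CpG dinucleotides and to carry sites for widely expressed factors, whereas chromatin that is open in few cell types lies more often inside genes or between them, at enhancers. A region far from any start can serve a gene other than its nearest one, so a gene named beside a region is its neighbour and not a shown target. The deposited values are peak positions in mm10 without height or read count. The depth behind a call is unknown, and a missing peak may be a peak below the authors' threshold.

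The libraries differed in how much was called. KrasLA1 replicates 1 and 2 had a peak in 66.0% and 71.8% of all autosomal regions, and KrasLA1;Dicer1S2D replicates 1 and 2 in 78.8% and 54.9%, so the KrasLA1;Dicer1S2D tumours had the most and the fewest. The tissue label was checked against 12 lung epithelial markers, among them Nkx2-1, Sftpc and Napsa, and all 12 had a peak within 2 kb of an end in every library. Other cell types had less: the 60 regions at the epithelial markers compare with 5 at 4 endothelial markers, 16 at 5 leukocyte markers and 12 at 4 stromal markers. Among the markers, Cdh5, Kdr and Tie1 of endothelium, Cd3e of leukocytes and Col1a2 of stroma had 0 regions in any library. None of the 362 Dicer1S2D-only regions lay at a marker of any of these lists. The samples are bulk tissue, in which more cells of a type and more open chromatin per cell cannot be told apart.

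Of the Dicer1S2D-only regions, 14 covered an annotated start of transcription, and 11 of the starts belonged to protein-coding genes. The promoters of 8 of these genes are printed because they are the places where the peaks can be set against a known start. Each is the 250 bases that end just before the RefSeq start (GRCm38.p6, the assembly of mm10), read 5′ to 3′ on the strand of the gene. Capitals mark matches, on either strand, of 16 short motifs that are given with their counts further on. Fermt1 encodes kindlin-1, which activates integrins at the cell membrane, Chst2 a sulfotransferase of carbohydrate chains, Pdgfd a platelet-derived growth factor and Aqp1 a water channel. Gimap9 is a GTPase of the immunity-associated family, Slc11a1 a metal ion transporter of phagocyte vesicles, Ampd3 an AMP deaminase and Sema4d a semaphorin of axons and lymphocytes.
Fermt1 promoter, chr2:132946037-132946286, minus strand: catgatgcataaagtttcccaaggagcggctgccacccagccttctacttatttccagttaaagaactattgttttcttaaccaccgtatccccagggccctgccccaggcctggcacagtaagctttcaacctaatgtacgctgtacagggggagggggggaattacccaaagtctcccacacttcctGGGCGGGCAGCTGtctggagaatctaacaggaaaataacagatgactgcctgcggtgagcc
Chst2 promoter, chr9:95407271-95407520, minus strand: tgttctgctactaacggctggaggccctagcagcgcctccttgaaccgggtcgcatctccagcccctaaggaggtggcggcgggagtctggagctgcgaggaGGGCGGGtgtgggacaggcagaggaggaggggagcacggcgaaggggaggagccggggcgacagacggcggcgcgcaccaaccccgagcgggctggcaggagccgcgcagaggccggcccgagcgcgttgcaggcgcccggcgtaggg
Pdgfd promoter, chr9:6168236-6168485, plus strand: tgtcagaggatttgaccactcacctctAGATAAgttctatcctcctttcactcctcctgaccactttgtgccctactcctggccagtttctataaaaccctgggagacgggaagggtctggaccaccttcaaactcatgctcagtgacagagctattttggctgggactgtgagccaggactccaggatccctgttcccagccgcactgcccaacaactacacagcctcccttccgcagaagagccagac
Aqp1 promoter, chr6:55336049-55336298, plus strand: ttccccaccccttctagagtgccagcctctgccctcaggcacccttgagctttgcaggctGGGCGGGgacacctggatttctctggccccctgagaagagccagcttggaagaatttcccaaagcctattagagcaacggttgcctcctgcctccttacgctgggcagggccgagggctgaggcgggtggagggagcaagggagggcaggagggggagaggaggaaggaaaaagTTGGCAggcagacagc
Gimap9 promoter, chr6:48675885-48676134, plus strand: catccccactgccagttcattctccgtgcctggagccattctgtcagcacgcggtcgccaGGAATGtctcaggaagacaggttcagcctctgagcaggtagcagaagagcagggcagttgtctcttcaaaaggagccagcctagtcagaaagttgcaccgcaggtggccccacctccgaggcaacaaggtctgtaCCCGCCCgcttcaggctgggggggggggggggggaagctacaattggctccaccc
Slc11a1 promoter, chr1:74374953-74375202, plus strand: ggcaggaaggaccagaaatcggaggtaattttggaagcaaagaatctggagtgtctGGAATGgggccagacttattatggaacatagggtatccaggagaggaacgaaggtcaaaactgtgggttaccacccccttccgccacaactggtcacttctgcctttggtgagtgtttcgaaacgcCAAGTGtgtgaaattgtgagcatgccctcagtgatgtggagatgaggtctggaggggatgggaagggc
Ampd3 promoter, chr7:110772354-110772603, plus strand: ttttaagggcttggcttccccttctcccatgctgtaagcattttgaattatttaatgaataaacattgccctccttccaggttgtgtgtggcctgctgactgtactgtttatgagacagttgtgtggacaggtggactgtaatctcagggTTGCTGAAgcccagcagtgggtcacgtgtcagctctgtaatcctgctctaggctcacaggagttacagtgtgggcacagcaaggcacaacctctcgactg
Sema4d promoter, chr13:51756684-51756933, minus strand: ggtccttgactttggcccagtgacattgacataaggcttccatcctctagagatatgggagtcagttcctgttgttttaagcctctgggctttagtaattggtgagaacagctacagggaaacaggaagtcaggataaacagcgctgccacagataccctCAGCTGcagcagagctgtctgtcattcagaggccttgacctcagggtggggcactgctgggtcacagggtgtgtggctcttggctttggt

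At these starts the peaks of the KrasLA1;Dicer1S2D tumours lay over the start itself. At Fermt1, replicate 1 had a 1089-bp peak from position -116 to 972 relative to the start and replicate 2 a 786-bp peak from -108 to 677. A further peak lay between 6526 and 7123 in replicate 1 and between 6613 and 6888 in replicate 2, inside the gene. Within 10 kb on either side of that start, neither KrasLA1 tumour had a peak. At Chst2, replicate 1 had peaks of 679 and 797 bp and replicate 2 a peak of 338 bp, and again no KrasLA1 peak lay within 10 kb. At Pdgfd the peaks were 442 and 259 bp wide, and they made up the only region of this gene in any library.

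At Aqp1, Slc11a1 and Ampd3 all 4 tumours had a further peak near the start. Aqp1 had peaks of 382 and 273 bp over its start in KrasLA1;Dicer1S2D replicates 1 and 2, while about 5 kb inside the gene every tumour had a peak, of 497 bp in KrasLA1 replicate 1 and 1150 bp in KrasLA1 replicate 2. Slc11a1 had peaks of 467 and 347 bp over the start in KrasLA1;Dicer1S2D replicates 1 and 2, and all 4 tumours had a peak of 492 to 677 bp about 7 kb before it. Ampd3 had 239 and 273 bp at the start and a peak in all 4 tumours about 4 kb before it, of 261 to 1323 bp. The other starts with a printed promoter had no such peak of every tumour within 10 kb. Gimap9 had 536 and 540 bp at the start, and a peak of KrasLA1 replicate 1 reached position -9618. At Sema4d, peaks of 254 and 241 bp covered 1 of 3 annotated starts, the other starts were in no region of all 4 libraries, and no KrasLA1 peak lay within 10 kb.

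**Figure D1:**
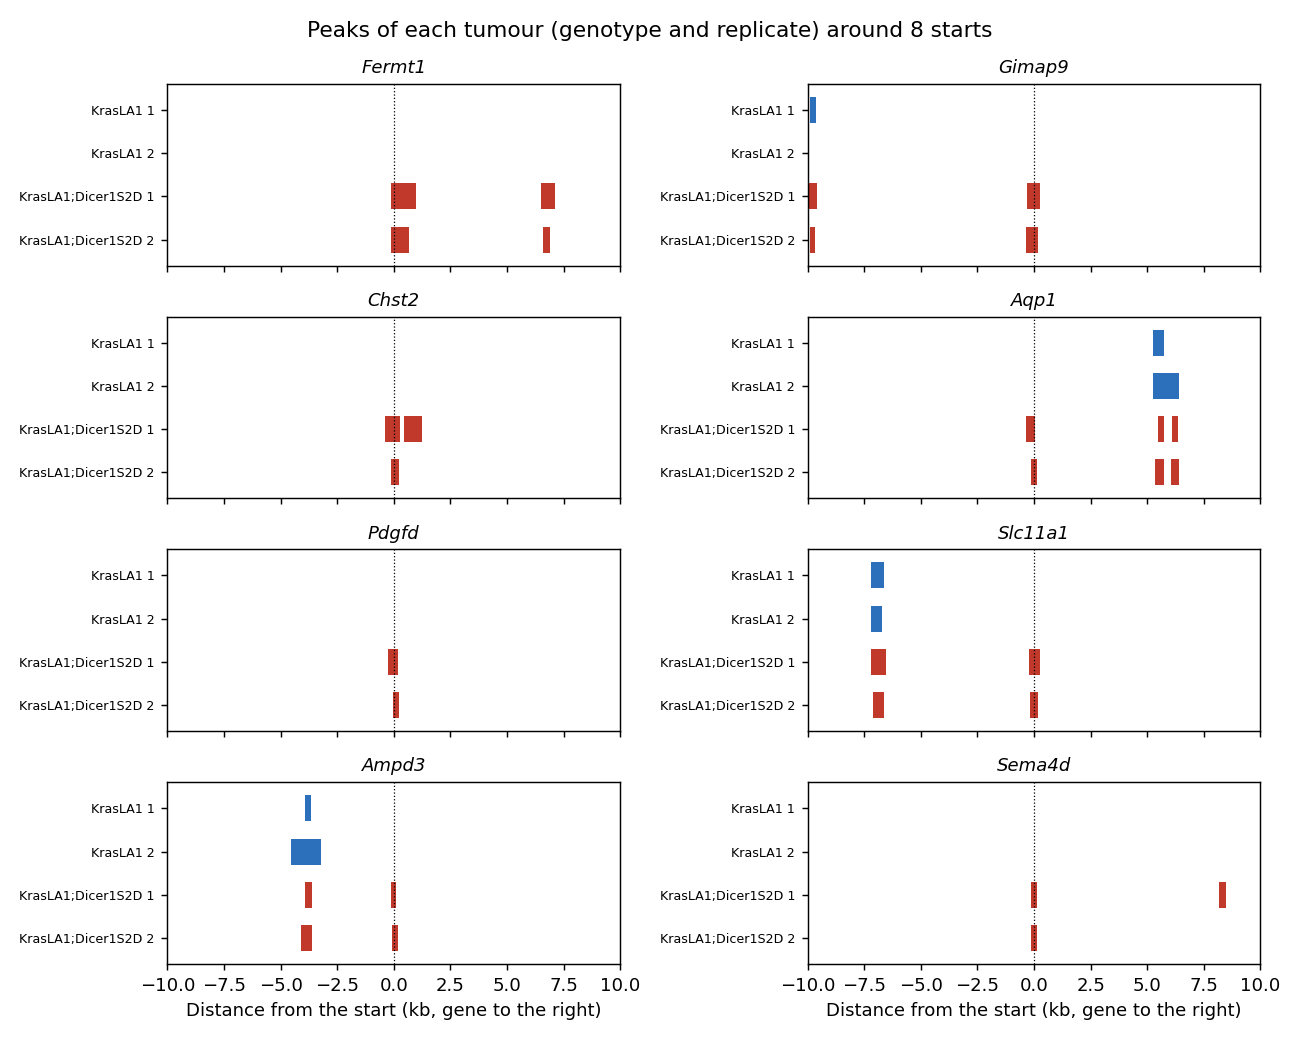
Peaks of each tumour within 10 kb of the RefSeq start of 8 genes whose start lies in a Dicer1S2D-only region, drawn to scale as bars against distance from the start in kb, with the gene running to the right of 0. KrasLA1 replicates 1 and 2 (blue) are above and KrasLA1;Dicer1S2D replicates 1 and 2 (red) below in each panel; Slc11a1, Aqp1 and Ampd3 have peaks of all 4 tumours elsewhere in the window, and Fermt1, Chst2, Pdgfd and Sema4d have none from a KrasLA1 tumour.

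The other protein-coding genes with a start in a Dicer1S2D-only region were Slamf8, a cell-surface receptor of leukocytes, Pdzd9 and Abca9, an ABC transporter. The peaks at the Slamf8 start were 175 and 217 bp wide and those at Pdzd9 184 and 261 bp. At Pdzd9 the peak of replicate 1 ended 31 bp before the start, so only replicate 2 covered it. At Abca9 replicate 1 had a 504-bp peak across the start, and the 245-bp peak of replicate 2 began 201 bp after it, so only replicate 1 covered that start. The remaining starts were of non-coding genes, among them Gm14102, which begins inside the same 1089-bp region as Fermt1.

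The promoters in Dicer1S2D-only regions were poor in CpG. The 16 annotated starts, some from the same gene, had a median G+C of 52.5% (range 45.3 to 73.0%) in the 300 bases from 250 before to 50 after the start. The ratio of observed to expected CpG had a median of 0.237 and passed 0.6, a usual mark of a CpG island, in 1 of 16 (6.25%), which was Chst2 at 0.885. Among the 11073 starts in regions of all 4 libraries, the median G+C was 62.3%, the median ratio 0.793, and 76.7% passed 0.6. The 60 starts in regions of both KrasLA1 tumours only stood between these, with a median ratio of 0.588 and 50.0% past 0.6, and the 18835 starts in no region had 0.228 and 12.4%. By this measure the starts in Dicer1S2D-only regions resembled starts without any region more than shared open starts. The promoters of a single gene, and some windows, overlap, so the 16 are not independent.

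Motif matches were counted in the same 300-base windows on both strands and describe letters, not binding. The KLF/SP motif GGGCGGG was in 4 of 16 windows (25%), namely Fermt1, Gimap9, Aqp1 and Chst2, against 50.4% of starts in regions of all 4 libraries and 25.8% of all 31365 starts. The AP-1 motif TGANTCA was in 4 (25%), against 4.80% and 7.85%; these were Slamf8, Ampd3 and 2 overlapping windows of the non-coding gene Gm44507, hence 3 loci. In Ampd3 and Slamf8 the AP-1 match lies in or reaches into the 50 bases after the start, which are not printed. The E-box CAGCTG was in 4 (against 14.5% and 16.3%), CEBP TTGCNNAA in 3 (7.95% and 10.9%), TEAD GGAATG in 3 (11.5% and 14.6%) and NFI TTGGCA in 2 (against 14.1% of all starts). The motifs CAAGTG of NKX2, AGATAA of GATA factors and TGTGGTT of RUNX were in 1 window each. ETS CCGGAAG, FOX TGTTTAC, HNF4 CAAAGTCCA, HNF1 GTTAATNAT, GRHL AACCNGTT, NRF1 GCGCATGCG and the CTCF core AGGTGGCAG were in 0 windows. Of these only ETS was common at starts shared by all tumours, at 19.8%. Within the printed stretches, GGGCGGG and CAGCTG abut in Fermt1.

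Starts were a small part of the whole. A start lay inside 14 of 351 Dicer1S2D-only regions (3.99%, 95% Wilson interval 2.39 to 6.58%), on the 18 autosomes for which starts were used here. The share was 6.71% of 820 regions of both KrasLA1 tumours only and 33.3% of 25545 regions of all 4 libraries, against 16.7% of all regions. It was 1.68% of regions called in KrasLA1;Dicer1S2D replicate 1 alone and 3.48% of those in replicate 2 alone. Within 2 kb of a start lay 39 (11.1%), against 17.8% and 38.6% for the KrasLA1-only and the shared regions and 23.4% for all regions. Intervals here and below cover counting error only, since regions of 4 libraries are not replicates of a genotype.

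Relative to protein-coding genes, the Dicer1S2D-only regions lay mostly inside and between genes. Of the 362, 50 (13.8%, Wilson 10.6 to 17.7%) were within 2 kb of an end of a protein-coding gene and a further 142 (39.2%) inside a gene. Another 46 (12.7%) lay 2 to 10 kb outside, 94 (26.0%, 21.7 to 30.7%) lay 10 to 100 kb outside and 30 (8.29%) farther than 100 kb from any protein-coding gene. Regions of all 4 libraries were at a gene end in 40.8% and 10 to 100 kb outside in 14.8%. Regions of both KrasLA1 tumours only were at an end in 19.3% (16.8 to 22.0%), inside a gene in 46.2% and 10 to 100 kb outside in 19.2% (16.7 to 21.9%). Over all regions the shares were 25.1% at an end, 41.6% inside a gene and 18.5% at 10 to 100 kb. Regions called in a single KrasLA1;Dicer1S2D library were at an end in 10.1% (replicate 1 only) and 15.9% (replicate 2 only), on either side of the 13.8% of the Dicer1S2D-only regions, so a share at ends below that of shared regions was not limited to regions that follow the genotype.

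**Figure D2:**
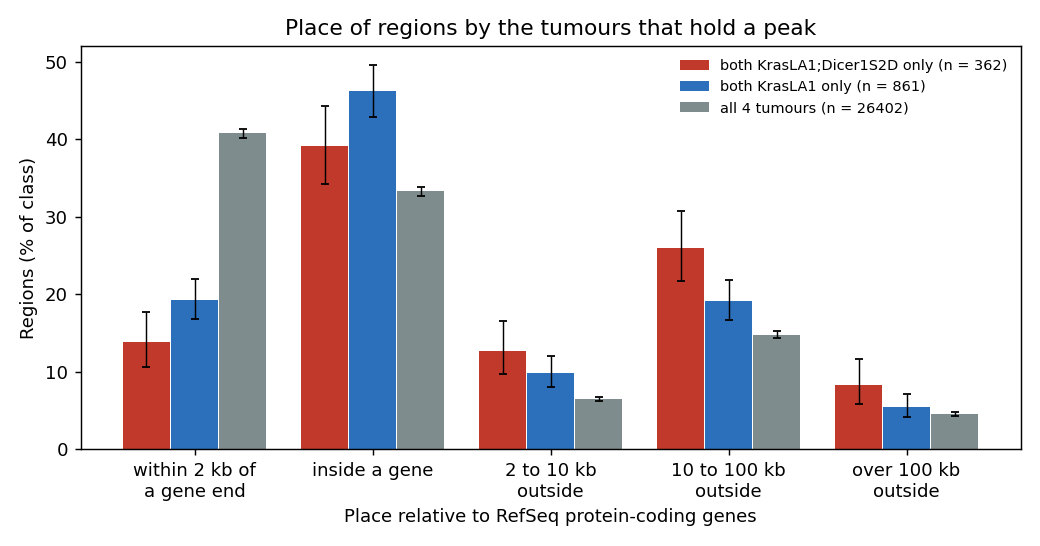
Percent of regions in each place relative to RefSeq protein-coding genes for regions of both KrasLA1;Dicer1S2D tumours only (red, n = 362), both KrasLA1 tumours only (blue, n = 861) and all 4 tumours (grey, n = 26402), with 95% Wilson intervals as error bars. Gene ends hold 13.8%, 19.3% and 40.8% of the classes in that order.

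The widest Dicer1S2D-only regions at gene ends included several beyond the starts above. A 788-bp region lay at Pam, which amidates peptide hormones, a 572-bp region at Serpinb5, the epithelial serpin maspin, and a 552-bp region at Itih2, an inter-alpha-trypsin inhibitor chain that stabilises hyaluronan. Ehbp1l1, an adaptor of endosomal tubules, had 522 bp and Slc10a5, of the bile acid transporter family, 654 bp. Pam and Itih2 had an annotated start in a region of all 4 libraries, so at both genes the Dicer1S2D-only region was a further site at a gene already open in every tumour. A second Dicer1S2D-only region lay 17387 bp from the one at Serpinb5, with no other region between them.

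The Dicer1S2D-only regions were narrow, and the peaks of both tumours overlapped in each, as the joining of peaks by 1 bp requires. The Dicer1S2D-only regions were 174 to 1151 bp wide with a median of 316 bp, against 382 bp for KrasLA1-only regions and 790 bp for shared regions. The peak of replicate 1 at these regions had a median width of 262 bp (155 to 1151 bp) and that of replicate 2 of 224 bp (171 to 942 bp). At shared regions the same libraries had medians of 610 and 562 bp. The width of a region is the union of its peaks, and the widths are given as a description. All but 1 of the 362 held 1 peak of each library. At 348 the peaks shared at least 50% of the narrower one, and at 184 the narrower lay whole inside the wider. How far peaks overlap in other classes of region was not counted, so these counts are no measure of agreement. Replicate 1 had the wider peak at 223 and replicate 2 at 136. The smallest shared stretch was 4 bp. The set changed with the peaks admitted. When only the widest 75% of each library's peaks were used, which also removed KrasLA1 peaks, 309 regions had the pattern, and 65 of the 362 kept it. Of 93 named genes 23 then still had one, among them Fermt1, Chst2, Gimap9, Serpinb5, Itih2 and Ptprj, while Pdgfd, Aqp1, Sema4d, Clic5, Runx2 and Pam did not. With equal numbers of widest peaks per library 155 regions and 58 of the 93 genes kept it, Pdgfd, Aqp1, Clic5 and Runx2 included.

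**Figure D3:**
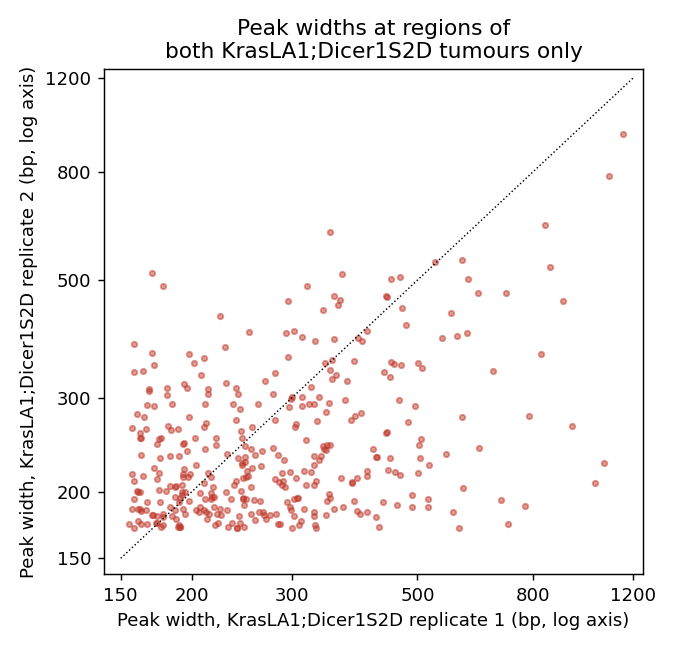
Width in bp of the peak of KrasLA1;Dicer1S2D replicate 1 (x axis, log) against that of replicate 2 (y axis, log) at the 362 Dicer1S2D-only regions, 1 point per region, with the dotted line at equal width. Points crowd below 300 bp in both tumours, and 223 regions lie on the side of replicate 1.

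The rule needs no KrasLA1 peak to touch a region by even 1 bp, and some regions came close to that limit. A KrasLA1 peak lay 6 bp from the region at Hspb1, a small heat shock protein, 43 bp from that at Zmym2 and 54 bp from that at Mthfd1l. In all, 12 of the 362 (3.31%) had a KrasLA1 peak within 500 bp and 40 (11%) within 1 kb, and the median gap was 7604 bp. Just outside the rule, with both KrasLA1;Dicer1S2D peaks and 1 KrasLA1 library, a KrasLA1 peak overlapped by 71 bp at Rab27a, 81 bp at Diras2, 84 bp at Cemip2 and 85 bp at Marchf1. No region of this kind had an overlap under 10 bp. Regions of both KrasLA1;Dicer1S2D tumours and KrasLA1 replicate 1 numbered 1071, and those with KrasLA1 replicate 2 numbered 2377, so both sets outnumber the 362. The number of regions that follow the genotype rested on every library: it was 1433 or 2739 when KrasLA1 replicate 1 or 2 was left out, and 1078 or 7551 when KrasLA1;Dicer1S2D replicate 1 or 2 was. Of regions with peaks of exactly 2 libraries, 4015 were of replicate 1 of each genotype and 1403 of replicate 2 of each. KrasLA1 replicate 2 with KrasLA1;Dicer1S2D replicate 1 had 3190, and KrasLA1 replicate 1 with KrasLA1;Dicer1S2D replicate 2 had 259. Both KrasLA1 tumours alone had 861. Pairs across the genotypes were thus both more and less frequent than the 362.

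Dicer1S2D-only regions lay among chromatin that all tumours shared. The nearest region of all 4 libraries was at a median of 14737 bp, with 37.0% within 10 kb and 83.7% within 50 kb. The same median was 11177 bp for KrasLA1-only regions, 12529 bp from one shared region to the next and 13722 bp for all regions. Regions of KrasLA1;Dicer1S2D replicate 1 alone were at 16359 bp and of replicate 2 alone at 17048 bp. The distances of these classes overlap widely, and the middle 50% of the Dicer1S2D-only regions ran from 6705 to 33440 bp.

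**Figure D4:**
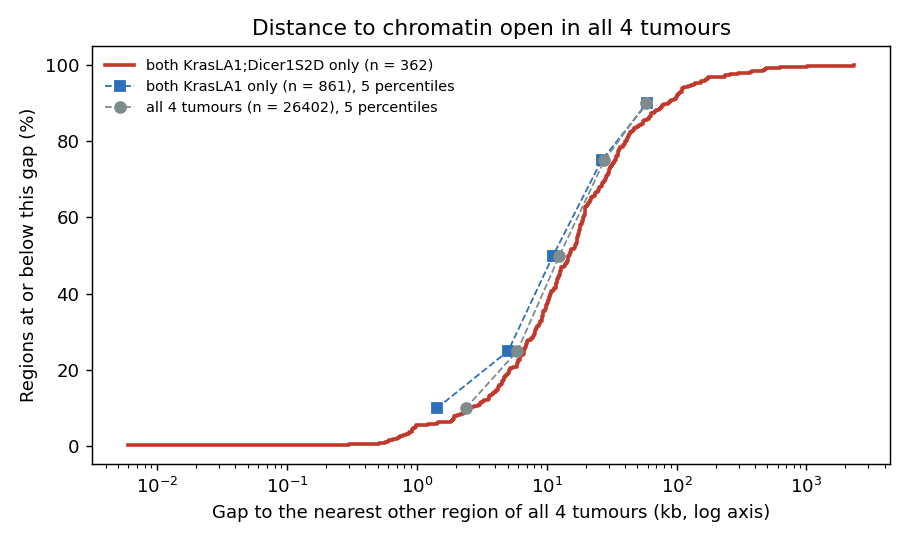
Cumulative percent of Dicer1S2D-only regions (red line, n = 362) by the gap in kb, on a log axis, to the nearest region called in all 4 tumours, with 5 percentiles for KrasLA1-only (blue squares) and shared regions (grey circles). The curves run close together, with medians of 14737, 11177 and 12529 bp.

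The region farthest from shared chromatin, at chr5:81019576-81020004, was 429 bp wide, lay 566 bp before a start of Adgrl3, a latrophilin adhesion receptor, and was 2334869 bp from the nearest shared region. Adgrl3 had 5 regions, of which KrasLA1 replicate 1 had 2, KrasLA1 replicate 2 had 0, and KrasLA1;Dicer1S2D replicates 1 and 2 had 5 and 2. The Pdgfd start followed at 1007870 bp. A 287-bp region at chr4:84149680-84149966 lay 116837 bp outside Bnc2, a zinc finger factor, and 623702 bp from shared chromatin. A 219-bp region at chr5:78421509-78421727 was 1013463 bp from its nearest gene, Igfbp7, but 2303 bp from a peak of KrasLA1 replicate 1, and one of 639 bp at chr8:87363168-87363806 lay 105046 bp from Cbln1, a synapse organiser. At the other end, the Hspb1 region lay 6 bp from a shared region, that at Zdhhc22, a palmitoyltransferase, 567 bp, and a region 46919 bp from Eea1, an early endosome tether, 599 bp.

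The regions immediately on either side were called about as often as regions at large, except in 1 tumour of each group. Of the 724 flanking regions, 295 (40.7%) were shared by all 4 libraries, against 43.5% of the flanks of all regions. KrasLA1 replicates 1 and 2 had a peak in 64.9% and 63.0% of these flanks, and KrasLA1;Dicer1S2D replicates 1 and 2 in 83.6% and 53.9%. Beside their whole-genome shares, this was lower for KrasLA1 replicate 2 (63.0 against 71.8%) and higher for KrasLA1;Dicer1S2D replicate 1 (83.6 against 78.8%). For KrasLA1 replicate 1 it was 64.9 against 66.0%, and for KrasLA1;Dicer1S2D replicate 2 it was 53.9 against 54.9%. A flank had the Dicer1S2D-only pattern itself in 18 cases (2.49%), against 0.596% around all regions and 0.407% around KrasLA1-only regions. Each pair of neighbours with this pattern counts from both sides. The calls of these 18 flanks were fixed by the rule, and they are included in the shares of each tumour above.

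Pairs and triplets of Dicer1S2D-only regions lay within 100 kb of each other at 21 places, with 44 of the 362 regions. At 6 of these no other region lay between: near Tns1 (a focal adhesion protein), at Serpinb5, between Slc45a3 and Elk4, at Fermt1, near Eea1 and near Pmaip1, which encodes the BH3-only protein Noxa. At 13 a shared region lay between. The stretch from the Aqp1 start to Ghrhr, the receptor of growth hormone-releasing hormone, spans chr6:55335967-55384182 and held 7 other regions. KrasLA1;Dicer1S2D replicate 1 had all 7 of these, and each of the other 3 tumours had 2. Between Gimap9 and Gimap7 lay 1 other region, called only in KrasLA1;Dicer1S2D replicate 1. Between the 2 regions beside Mef2a, a MADS-box factor, and Lrrc28, 3 others were called in KrasLA1 tumours and none in a KrasLA1;Dicer1S2D tumour. At Tle3, a Groucho-family corepressor, 8 other regions lay between, called in 6, 7, 6 and 4 cases in KrasLA1 replicates 1 and 2 and KrasLA1;Dicer1S2D replicates 1 and 2.

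The 283 genes were for the most part open in all tumours elsewhere. A region of all 4 libraries lay at 245 of them (86.6%, Wilson 82.1 to 90.1%), against 87.2% of all genes with a region. An annotated start in such a region was found for 145 of the 225 with a start in the table (64.4%), against 66.1%. Genes with many regions held more of the set: 17 of 3427 genes with 1 region (0.496%), 84 of 2961 with 5 to 9 (2.84%) and 16 of 145 with 20 or more (11%). The median was 5 regions per gene here and 3 over all genes, so counts by family are given below both per gene and per region. No protein-coding gene lay within 10 kb of 124 regions (34.3%).

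The other regions at these genes followed the overall calling of each library. These genes were chosen by the same calls and the Dicer1S2D-only regions were left out, so the values are a description. Of 1690 such regions, KrasLA1 replicates 1 and 2 had a peak in 62.5% and 70.4%, and KrasLA1;Dicer1S2D replicates 1 and 2 in 80.9% and 53.6%. Over all autosomal regions that are not Dicer1S2D-only, the shares were 66.4%, 72.2%, 78.7% and 54.6% in the same order. The KrasLA1;Dicer1S2D tumours were the highest and the lowest, and the groups overlapped. The group means were 66.4% ± 5.56 (SD, n = 2) for KrasLA1 and 67.2% ± 19.3 (SD, n = 2) for KrasLA1;Dicer1S2D, which differ by 0.80 points. The difference was well within the spread between tumours, and its sign depended on single libraries: it was -12.87 when KrasLA1;Dicer1S2D replicate 1 was left out, -3.14 when KrasLA1 replicate 1 was, and 14.47 and 4.73 when replicate 2 of KrasLA1;Dicer1S2D or of KrasLA1 was.

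By function the genes were spread thinly over 30 families. A family member was among 85 of the 283 genes, 198 fell in no family, and 25 families had at least 1 gene. A family share can be read against 1.78% of genes and 0.596% of regions. A region between neighbouring genes counts for each, as at Il17ra and Kdm5a, Abca9 and Abca6, or Mapk8 and Arhgap22.

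Adhesion and matrix lists differed among themselves. Integrins and their adaptors had 2 of 38 genes (5.26%) and 4 of 227 regions (1.76%), all at Fermt1 and Itgb5, with 2 at each. Cadherins and protocadherins had 0 of 238 regions at 72 genes, 20 of which had a KrasLA1-only region. Among collagens, laminins and matrix proteins 1 of 59 genes (1.69%) and 1 of 295 regions (0.339%) was found, at Lama5, a laminin chain of basement membrane, with a 258-bp region 9092 bp outside it. The protease and inhibitor list had Serpinb5 and Serping1, the C1 inhibitor of complement, at 2 of 92 genes (2.17%) and 2 of 312 regions (0.641%).

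Ion channels and transporters were on 3 of the lists. Channels had 6 of 145 genes (4.14%) and 6 of 642 regions (0.935%). Clic5, a chloride intracellular channel protein of alveolar and other epithelia, had a 774-bp region, with peaks of 774 and 188 bp in replicates 1 and 2. Ano1, a calcium-activated chloride channel, had 322 bp with peaks of 322 and 292 bp at a gene end. Trpm4, a calcium-activated cation channel, had 285 bp, Kcns1, a silent potassium channel subunit, 409 bp and Kcnk16, a background potassium channel, 299 bp, while Clic3 shared a 195-bp region with Abca2. Solute carriers had 9 of 332 genes (2.71%) and 10 of 1229 regions (0.814%). Among those beyond the starts and gene ends above were Slc2a12, a glucose transporter, Slc25a17 of peroxisomes, Slc43a1, an amino acid transporter, and Slc45a3, next to Slc10a7 and Slc38a1. ABC transporters and pumps had 4 of 107 genes (3.74%) but 3 of 439 regions (0.683%), since Abca6 and Abca9 shared a region. These shares of regions rest on 10 regions or fewer each.

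Signalling genes were represented at several levels. Heterotrimeric G proteins and their regulators had 4 of 73 genes (5.48%) and 5 of 315 regions (1.59%): Gnaq with 2 regions, Gnai3, an inhibitory alpha subunit, with 286 bp, and Rgs12 and Rgs19, which speed GTP hydrolysis by these subunits, with 269 and 175 bp. The list of receptors coupled to G proteins had Adgrl3 and Cxcr5, a B cell chemokine receptor. These were 2 of 144 genes (1.39%) and 2 of 431 regions (0.464%). Ghrhr, also a receptor of this kind, was left out of the list, although a Dicer1S2D-only region lay inside it. Small GTPases and their regulators had 7 of 221 genes (3.17%) but 7 of 1319 regions (0.531%), among them Rap2a, Rapgef4, a cAMP-activated exchange factor, and Arhgef28. The list of receptor kinases and phosphatases had Fgfr2, a receptor of fibroblast growth factors, and Ptprj, a receptor phosphatase. These were 2 of 59 genes (3.39%) but 2 of 410 regions (0.488%). Alk, a receptor tyrosine kinase with an 838-bp region inside it, was not on this list. Ephrins, semaphorins, slits and netrins, with their receptors, had Sema4d and the plexin Plxna4 at 2 of 52 genes (3.85%) and 2 of 235 regions (0.851%). MAP kinases and phosphatases had Ksr1, a RAF-MEK scaffold, and Mapk8, which encodes JNK1, at 2 of 84 genes (2.38%) and 2 of 387 regions (0.517%). The TGF-beta and BMP pathway had Acvr1, an activin-receptor-like kinase, at 1 of 61 genes (1.64%) and 1 of 285 regions (0.351%). The list of the WNT pathway had 0 of 42 genes and 0 of 195 regions. It left out Bcl9l, a beta-catenin coactivator, inside which the 217-bp region counted for Cxcr5 lay. Phosphodiesterases and diacylglycerol kinases had 0 of 33 genes and 0 of 264 regions. The regions of Gnai3, Rgs12, Ksr1, Acvr1 and Fgfr2 lay inside these genes, as did that of Ptprj, which was 515 bp wide with peaks of 466 and 507 bp.

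The listed transcription factor and chromatin genes were near the background per gene and below it per region. Zinc finger genes named Zfp or Znf had 6 of 416 (1.44%), the list headed homeobox, forkhead, SOX and related factors 3 of 145 (2.07%), and that headed bZIP, bHLH, ETS and nuclear receptor factors 3 of 149 (2.01%). The homeobox list had Sox18, but also Hnf4a, a nuclear receptor, and Runx2, a Runt factor. The bZIP list had the ETS factor Elk4, but also Nfia and Tcf20, which are of none of its classes. These shares therefore describe the lists as drawn and not the classes. Per region the 3 lists stood at 0.567%, 0.520% and 0.352%. The widest was a 642-bp region in Runx2, a bone and cartilage factor, with peaks of 642 and 242 bp, and a region in Nfia, a nuclear factor I gene, had 306 bp with peaks of 165 and 277 bp in replicates 1 and 2. Sox18, an endothelial SOX factor, shared the 175-bp region of Rgs19. The list of chromatin regulators had Ezh1, a Polycomb histone methyltransferase, Kdm5a, a histone demethylase, and Phf20. These were 3 of 165 genes (1.82%) and 3 of 796 regions (0.377%). Kat6a, a histone acetyltransferase, Jmjd1c and Cdyl were not on this list. They had Dicer1S2D-only regions of 264, 276 and 176 bp inside them. The list of RNA-binding and microRNA pathway genes had 0 of 174 genes and 0 of 654 regions, while 5 of its genes had a KrasLA1-only region. It left out Dis3l2, an RNA exonuclease with a 329-bp Dicer1S2D-only region inside it. Also left out were the RNA-binding genes Cirbp, Grsf1 and Samd4, each with such a region within 10 kb. MicroRNA hairpins lay within 10 kb of 3 Dicer1S2D-only regions (0.829%, Wilson 0.282 to 2.41%), namely Mir3087 at 8559 bp, Mir7089 at 5155 bp and Mir1190 at 5797 bp, against 1.66% of all regions.

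The remaining lists were small. Synapse and vesicle release had 4 of 87 genes (4.60%) and 5 of 395 regions (1.27%), with Syt1 and Syt11, synaptotagmins, Magi3 and Lrfn2. The cytoskeletal list had 7 of 165 genes (4.24%) and 7 of 974 regions (0.719%), including Kif21a and Kif6, kinesins, Fmnl2, a formin, and Ank3, ankyrin G. It was matched by symbol and includes Mylip, which is a ubiquitin ligase. The lipid list had 7 of 252 genes (2.78%) and 6 of 910 regions (0.659%), among them the cytochromes Cyp4f15, Cyp4f40 and Cyp4x1 and the acyltransferase Mogat1, but its Ldlrad1, Ldlrad4 and Pla2r1 are not lipid enzymes. Ubiquitin ligases and deubiquitinases had 4 of 363 genes (1.10%) and 4 of 1258 regions (0.318%), and cytokines and their receptors had Il17ra and Il1rn at 2 of 200 genes (1%) and 2 of 626 regions (0.319%). The list of apoptosis and DNA repair had Rad51b at 1 of 102 genes (0.980%) and 1 of 350 regions (0.286%), and it left out Pmaip1. Endothelium, blood cells and stroma had 0 of 16 genes and 0 of 67 regions. Lists of gastric and of lung epithelium had 2 of 22 and 2 of 27 genes, and 2 of 68 and 2 of 146 regions, which are too few to read a share from. The gastric pair were Hnf4a and the proton pump subunit Atp4a, and the lung pair Clic5 and Muc5b.

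A group of 22 genes (7.77% of the 283) had no region in either KrasLA1 tumour, against 304 of all 15882 genes (1.91%). All 283 were chosen for a region absent from both KrasLA1 tumours, so the rule bears on this share and the difference is not a result. For 17 of the 22 the Dicer1S2D-only region was their only one, so that its absence from KrasLA1 is the rule itself. Among them were Gfi1b, a factor of red cell and platelet precursors, with a 448-bp region; Il1rn, the interleukin-1 receptor antagonist, with 234 bp; Serping1 with 286 bp; Fcrl6, which shares the 217-bp Slamf8 region; and Gimap4, which shares the 593-bp Gimap9 region. Beside these, the 16 regions at the leukocyte markers were called in 8 and 12 cases in KrasLA1 replicates 1 and 2 and in 11 and 6 cases in KrasLA1;Dicer1S2D replicates 1 and 2, with overlapping groups. The part of blood cells in the regions named was not tested. Others of the 22 were Krt71, a hair follicle keratin with a 396-bp region, Mybpc1, a muscle myosin-binding protein with 408 bp, St6galnac5, a sialyltransferase with 243 bp, Plekho1 with 391 bp, Kcnk16, Ghrhr, Lrfn2, Pdgfd and Chst2. Further ones were Trpd52l3, Mgat4f, Ccdc154, Wfdc12, Abca9, Abca6 and 2310079G19Rik. At Ghrhr, 4 regions were called in KrasLA1;Dicer1S2D replicate 1 and 1 in replicate 2, so 3 of them rest on replicate 1 alone.

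At 15 of the 283 genes (5.30%, Wilson 3.24 to 8.56%) a KrasLA1-only region lay as well, close to the 4.87% of all genes with such a region. Most had many regions: Rad51b, a homologous recombination factor, had 50 regions, 25 of them in all 4 libraries, Ank3 had 29, Akap13, which anchors protein kinase A, had 23, and Tmem135 had 20. Fgfr2 had 16 regions, of which KrasLA1 replicates 1 and 2 had 9 and 12 and KrasLA1;Dicer1S2D replicates 1 and 2 had 9 and 8. The others were Gnaq, Spidr, Map7, a microtubule-associated protein, Arhgap22, Zfp516, Phf20, Ehbp1, Syt11, Ube2o and Ehbp1l1. Every one of the 15 had at least 2 regions shared by all 4 libraries.

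Across the autosomes the Dicer1S2D-only regions were found on every chromosome. Chromosome 2 had the largest share, with 47 of 5101 regions (0.921%, Wilson 0.694 to 1.22%), followed by chromosome 1 with 34 of 3965 (0.858%, 0.614 to 1.20%). Both intervals lie above the 0.596% of all autosomal regions. Chromosome 11 had the lowest share, 13 of 4048 (0.321%, 0.188 to 0.549%), which lies below it. These 3 were singled out of 19 after their values were seen, and 19 intervals at 95% were read. The KrasLA1-only regions were distributed otherwise: they made up 1.08% of the regions of chromosome 2, 1.66% of chromosome 11 and 2.45% of chromosome 16, where the Dicer1S2D-only share was 0.349%, but 0.467% of chromosome 17, where it was 0.790%.

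**Figure D5:**
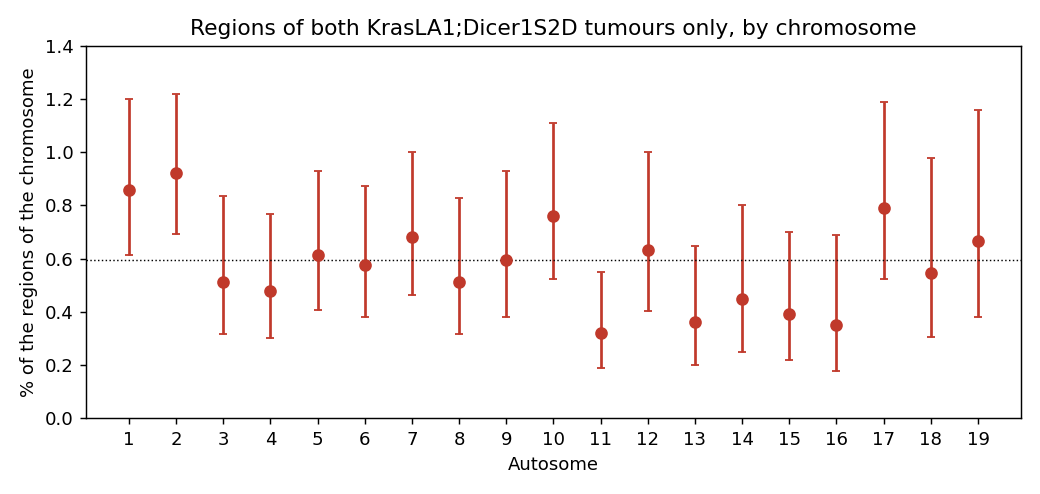
Percent of the regions of each autosome that are Dicer1S2D-only, as points with 95% Wilson intervals, and the share over all autosomes (0.596%) as a dotted line. The intervals of chromosomes 1 and 2 lie above the line and that of chromosome 11 below it.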

How the data were processed

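ATAC-seq peaks of 4 libraries were analysed. The values deposited by the authors are peak positions in mm10, per the file headers: 4 tracks of peaks called per library and 1 of merged regions, with no count, score or depth. Tools listed, per the submitters' processing notes, are deepTools 3.5.1, MACS3 3.0.0 and BWA 0.7.12. Settings, filters, depth and any transposase shift are items not given in the sources used. A weak peak missed at the unknown threshold is recorded as absent. All tracks were used, and 0 belonged to other samples.

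Joining peaks that overlap by 1 bp gave the authors' 61972 merged regions. Work was done in Python 3.11.15 (matplotlib 3.10.9, scipy 1.17.1, numpy 2.4.6). Genes (21887 protein-coding) and starts came from RefSeq tables of GRCm38.p6, without exons. Starts on chromosome 18 were not used here. Shares have 95% Wilson intervals. A permutation test planned for the other regions at the genes is not reported, because the same calls chose the genes. The code was tested on simulated data. The Dicer1S2D-only regions, families and motifs were chosen with earlier results of these data known, and no enrichment was tested. The rule for names was: the 12 widest regions at gene ends, up to 2 genes per family by width, the 5 regions farthest from and the 5 closest to a shared region, genes at runs within 100 kb, genes with no KrasLA1 region, and genes with regions of both kinds. Further genes were chosen after their values were seen. Some genes are not reported here. Alternatives changed the joining, the peak set, the windows and the libraries.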

Additional observations from a re-analysis of the deposited data

Results flagged for a closer look

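The sex chromosomes were outside the rule. On chromosome Y, 1 of 22 regions had the Dicer1S2D-only pattern and 0 the reverse one. It is 450 bp wide and lies at chrY:90803158-90803607. It is listed because a signal of this pattern was seen outside the autosomes, which are all that was described. Replicate 1 of its group is a female, and whether this stretch shares its sequence with chromosome X was not examined. Chromosome X had 9 such regions and 18 of the reverse pattern, of 1237.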

How the results depend on the processing

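Calls without height or depth limit every result: with an unknown threshold, a region of 1 genotype need not be closed in the other. Joining peaks at 50% of the narrower or across 500 bp, regions of at least 200 bp and, for the number only, the widest 75% of peaks gave 309 to 356 regions, against 362. The same regions were not always kept: of the 362, 348 were kept with 50% joining, 65 (18.0%) with the widest 75% of peaks and 155 (42.8%) with equal numbers of widest peaks. With equal numbers there were 569 regions and 442 genes. With the widest 75% the median distance to a shared region was 19143 bp, and windows of 1 and 5 kb put 9.39% and 23.2% at gene ends. Leaving out 1 library gave 1078 to 7551 regions (1433 and 2739 without KrasLA1 replicates 1 and 2, 1078 and 7551 without KrasLA1;Dicer1S2D replicates 1 and 2), since 1 library then decided for its group, with 815 to 4096 genes, 10.3% to 15.2% at gene ends and median distances of 11927 to 19302 bp. The difference at other regions, 0.80, ranged from -12.87 to 14.47, and reversed when replicate 1 of KrasLA1 (-3.14) or of KrasLA1;Dicer1S2D (-12.87) was left out. Apart from the leave-one-out ranges, the cause of these shifts was not tested. With the replicate block, a pairing by replicate number that is also the sex and was added after seeing the data, the mean difference was again 0.80, from 18.4 points in replicate 1 and -16.8 in replicate 2. The numbers are not known to pair the mice otherwise. No paired analysis was possible because of the rule itself for the counts of regions and genes, which use all 4 libraries and come from no test.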
